A study of Rattus norvegicus with 8 samples.

Results

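Mediator is the large complex that carries signals from DNA-bound activators to RNA polymerase II, and its genes were followed in heart muscle cells given extra miR-222. Its members were the rat genes whose array symbol is Med followed by a number, with or without a final l, together with Cdk8, Cdk19 and Ccnc. Of 33 such genes in current rat annotation, 26 paired with a probe set on the array, out of 14506 genes in all, and 7 (Med7, Med9, Med12, Med13l, Med18, Med25 and Med26) did not pair and were not analysed here. The brightest probe set by the mean over the 8 arrays was to stand for a gene, but each member had only 1, so no measured value decided which probe set was used. The rise of Med30 with miR-222 was known when these genes were chosen, so its difference is described here without a test. The other members, the lists of other genes and the tests were also chosen with earlier results of these data known. The p-values below are not free of that choice.

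The cells were primary ventricular cardiomyocytes of newborn rats in short-term culture. The groups were 4 samples transfected with a miR-222 precursor, a synthetic RNA that cells process into mature miR-222, and 4 samples transfected with a control precursor of scrambled sequence. Both RNAs were given at 0.4 µM with the same lipid reagent, and RNA was taken after 48 h. The labels give no strain, and they do not say whether samples came from separate cultures or pooled animals, so the spread behind every p-value below is that between these samples and may be technical. Effects of the scrambled RNA itself would also enter the comparison.

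Mediator consists of a head and a middle that touch the polymerase, a tail that most activators bind, and the scaffold subunit Med14 that joins them. A separate kinase module docks on this core reversibly and keeps it from the polymerase while bound. That module holds the kinase Cdk8 or its paralog Cdk19, cyclin C (Ccnc), Med12 or its paralog Med12l, and Med13 or its paralog Med13l, where Med13 tethers the module to the core. In the mouse heart, Med30 and Med13 are both known to matter: a mutation of Med30 causes a progressive cardiomyopathy, and Med13 is a target of the cardiac miR-208a that influences energy metabolism.

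The mature sequences are shown because the treatment delivered one of them, and because miR-222 and its neighbour miR-221 share the seed, the bases 2 to 8 that pair with target transcripts. They come from RefSeq on build GRCr8, both on the plus strand, at chrX:6022682-6022702 for miR-222-3p and chrX:6023246-6023268 for miR-221-3p. The seed is in capitals.
rno-miR-222-3p: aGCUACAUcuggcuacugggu
rno-miR-221-3p: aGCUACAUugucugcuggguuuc
Transcript ends were not searched for matches to the seed here.

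The arrays gave 1 normalised intensity per probe set, with array medians of 202 to 219. In log2 units, in which all levels below are given, the array medians were 7.66 to 7.77. Each gene was compared between groups with limma, a linear model with a variance shared across probe sets, and is called higher or lower where the p adjusted over all probe sets of the table was under 0.05. Cardiomyocyte markers fitted the label, with all 8 of 8 above every array's median. Their summed intensity was 71441 to 72662 in miR-222 arrays and 76030 to 77286 in control arrays, and 2 of 8 fell, Nppa at -0.20 (SE 0.04) and Ryr2 at -0.14 (SE 0.04). Of the targets for which the study is known, Hipk2 was 2.34-fold lower with miR-222, Hipk1 1.67-fold lower and Cdkn1b 1.31-fold lower. Markers of other cells the culture could hold had lower sums with miR-222 for fibroblasts, endothelium and smooth muscle, each with 1 member past the test. Of all genes 13.0% were lower, and nothing is read from the counts of markers. The summed intensity of 6 fibroblast markers was 7382 to 8451 in miR-222 arrays and 8462 to 9328 in control arrays, and 1 of 6 (Postn) fell. That of 4 endothelial markers was 736 to 849 in miR-222 arrays and 1312 to 1408 in control arrays, and 1 of 4 (Kdr) fell. Pecam1 at 0.04, Cdh5 at -0.13 and Tek at -0.02 did not pass. The sum of 4 smooth muscle markers was 11997 to 14607 in miR-222 arrays and 15431 to 15828 in control arrays, and 1 of 4 (Tagln) fell. Acta2 at -0.08, Cnn1 at -0.28 and Myh11 at 0.16 did not pass. The sum of 4 macrophage markers was 403 to 462 in miR-222 arrays and 417 to 446 in control arrays. Of these, 0 of 4 passed limma at an adjusted p under 0.05, while 1 (Ptprc, at -0.24) had an unadjusted p under 0.05. Above every array's median lay 5 of 6 fibroblast and 4 of 4 smooth muscle markers, but only 1 of 4 endothelial and 0 of 4 macrophage markers. That endothelial marker was Kdr, at 8.19 log2 units in miR-222 cells and 9.71 in control cells. Changes of the dimmer markers can be understated. No marker was listed at 0. Their part in the results on Mediator was not tested, and in whole cultures fewer cells of a type and less RNA per cell cannot be told apart.

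In miR-222 cells, 4 of the 5 measured genes of the kinase module were lower, Med30 was 2.61-fold higher, and the remaining members changed little or in opposite directions. By that rule of limma 5 of 26 members were higher (11.7% of all genes were), 6 were lower (13.0% of all genes were) and 15 did not pass. Since the group was chosen with the rise of Med30 in view, nothing is read from this count. The median log2 fold change (miR-222 minus control) was -0.02 over the members and 0.01 over all 14506 genes. The 4 miR-222 values lay wholly above the control values in 8 members (16.4% of all genes) and wholly below them in 8 (17.0% of all genes).

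**Figure D1:**
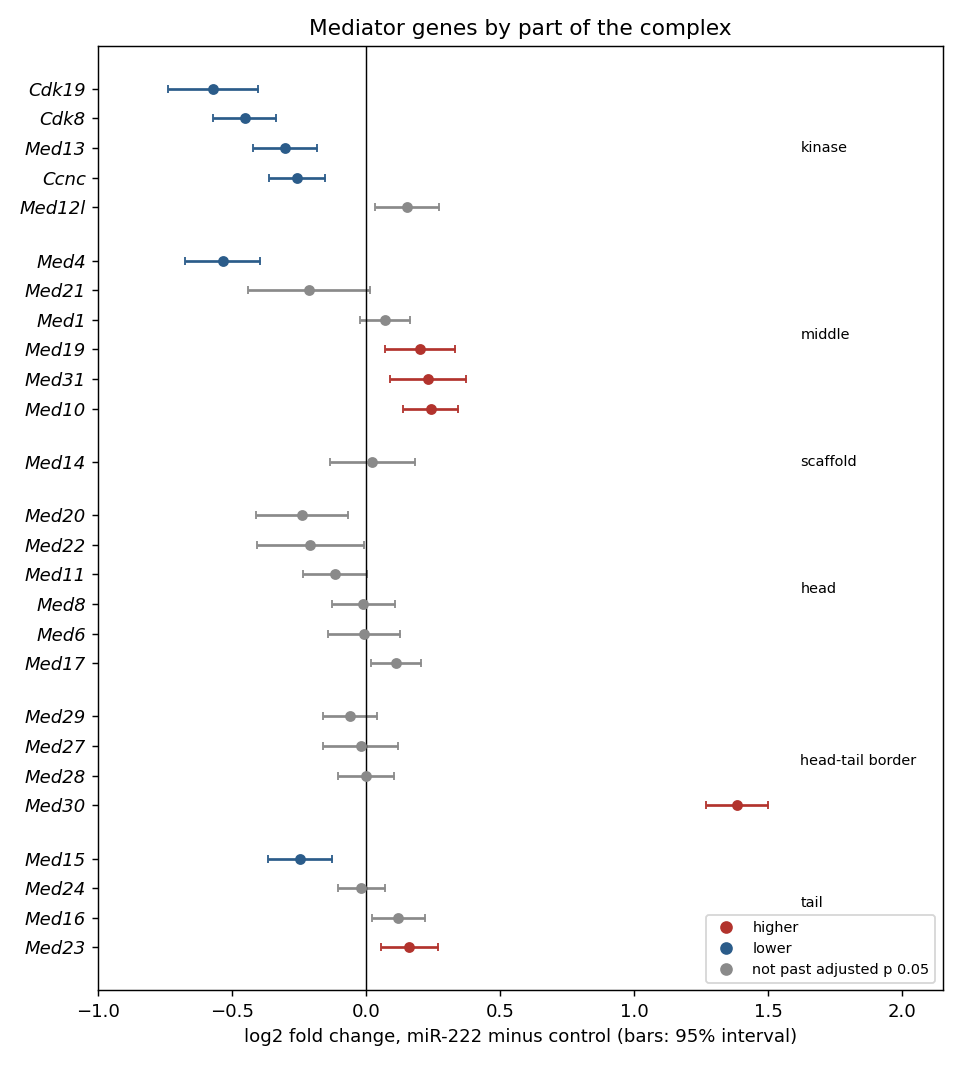
Log2 fold change (miR-222 minus control, horizontal axis) of the 26 measured Mediator genes, grouped by part of the complex, with 95% intervals from limma. Red and blue points passed an adjusted p under 0.05, and grey points did not. Med30 stands at 1.38, and since its rise was known when the genes were chosen, its colour is not read as a test. The other 25 genes lie between -0.57 and 0.24.

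Both kinases of the module were lower with miR-222. Cdk8 (probe set 10756521) measured 10.37, 10.48, 10.30 and 10.40 log2 units in miR-222 arrays and 10.84, 10.85, 10.79 and 10.89 in control arrays. The groups did not overlap, and the highest miR-222 value lay below the lowest control value. Cdk8 averaged 10.39 ± 0.08 in miR-222 cells and 10.84 ± 0.04 in control cells (SD, n = 4 each), a log2 fold change of -0.45 (SE 0.05, limma adjusted p = 0.000707), which is 1.37-fold lower. Cdk19 (probe set 10830456) measured 8.66, 8.66, 8.43 and 8.75 in miR-222 arrays and 9.15, 9.20, 9.28 and 9.17 in control arrays. Here too the groups stood apart, with miR-222 replicate 3 the lowest of all. The log2 fold change of Cdk19 was -0.57 (SE 0.07, limma adjusted p = 0.00126), or 1.49-fold lower, and it had the lowest fold change of the 26 members.

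Cdk8 and Cdk19 take each other's place in the module, and the difference between their changes could be tested within arrays. The log2 difference Cdk19 minus Cdk8 was -1.76 ± 0.10 in miR-222 cells and -1.64 ± 0.09 in control cells (SD, n = 4 each). The shift with miR-222 was -0.12 (95% interval -0.29 to 0.05), and it did not pass (two-sided exact permutation test over arrays, p = 0.2, where the smallest p this design allows is 0.0286). A larger fall of either kinase gene was therefore not detected. It was the 1 pair of 3 planned pairs of paralogs that could be measured, since Med12 and Med13l did not pair with a probe set.

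The cyclin and the tether of the module were lower as well, by less. Ccnc (probe set 10867848), whose product activates both kinases, measured 10.05, 10.01, 10.06 and 10.14 in miR-222 arrays and 10.36, 10.25, 10.35 and 10.34 in control arrays. This is a log2 fold change of -0.26 (SE 0.05, limma adjusted p = 0.00548). Med13 (probe set 10745897) measured 10.80, 10.74, 10.62 and 10.75 in miR-222 arrays and 11.00, 11.05, 10.98 and 11.09 in control arrays. The corresponding log2 fold change was -0.30 (SE 0.05, limma adjusted p = 0.00509), or 1.23-fold lower. In both genes every miR-222 array lay below every control array.

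Med12l was the member of the module that was not lower. It encodes a paralog of Med12, the subunit through which the module's kinase is switched on. It measured 9.01, 9.21, 9.18 and 9.11 in miR-222 arrays and 8.94, 9.01, 8.95 and 9.001 in control arrays. Its miR-222 values lay just above the control values, with a log2 fold change of 0.15 (SE 0.05) that did not pass (limma adjusted p = 0.0849, and 0.0398 without miR-222 replicate 1). The median log2 fold change was -0.30 over the 5 genes of the kinase module and -0.01 over the 21 other members.

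**Figure D2:**
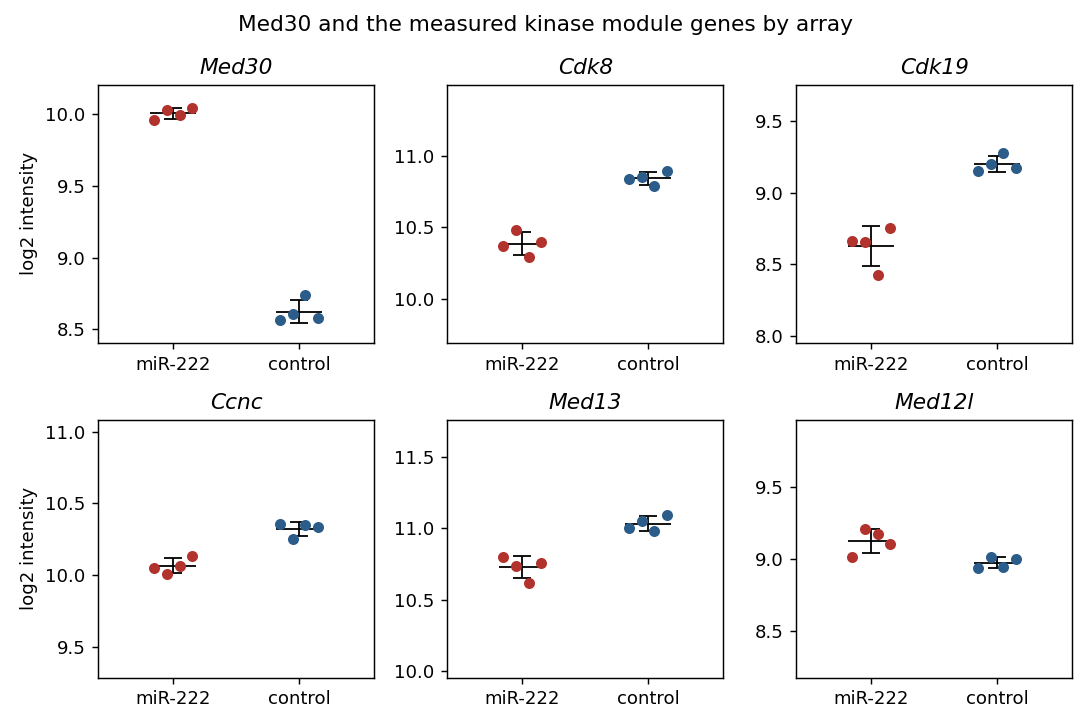
Log2 intensity (vertical axis, the same span in every panel) of Med30 and of the 5 measured kinase module genes in the 4 miR-222 arrays (red) and the 4 control arrays (blue), with mean and SD in black. Med30 lies near 10.01 in miR-222 arrays and 8.62 in control arrays, whereas Cdk8, Cdk19, Ccnc and Med13 lie lower in every miR-222 array than in any control array.

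The upstream sequences of the 4 lower kinase module genes are shown because these genes moved together. Each runs from 250 bases before to 50 bases after the RefSeq gene start on GRCr8, for Cdk8 at chr12:13917943-13918242 on the minus strand, Cdk19 at chr20:45324661-45324960 on the plus strand, Ccnc at chr5:40063433-40063732 on the plus strand and Med13 at chr10:71673852-71674151 on the minus strand. Capitals mark matches on either strand to 5 promoter motifs. The GC box was searched as GGGCGG. The CCAAT box was searched by those letters. The remaining motifs were the TATA box, searched as TATAAA, the E-box in its form CACGTG, and the ETS motif, searched as CCGGAAG.
Cdk8: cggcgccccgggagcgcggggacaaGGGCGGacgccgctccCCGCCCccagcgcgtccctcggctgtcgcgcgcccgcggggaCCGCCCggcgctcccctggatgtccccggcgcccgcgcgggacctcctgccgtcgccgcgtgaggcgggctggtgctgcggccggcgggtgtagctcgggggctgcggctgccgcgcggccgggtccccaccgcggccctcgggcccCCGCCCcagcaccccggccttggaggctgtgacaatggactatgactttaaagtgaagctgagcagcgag
Cdk19: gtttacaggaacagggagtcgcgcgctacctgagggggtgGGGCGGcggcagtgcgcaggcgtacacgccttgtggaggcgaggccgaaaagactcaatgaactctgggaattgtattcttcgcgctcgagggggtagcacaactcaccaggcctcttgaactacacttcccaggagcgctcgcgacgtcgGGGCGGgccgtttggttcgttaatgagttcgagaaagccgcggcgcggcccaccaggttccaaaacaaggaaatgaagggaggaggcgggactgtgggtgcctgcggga
Ccnc: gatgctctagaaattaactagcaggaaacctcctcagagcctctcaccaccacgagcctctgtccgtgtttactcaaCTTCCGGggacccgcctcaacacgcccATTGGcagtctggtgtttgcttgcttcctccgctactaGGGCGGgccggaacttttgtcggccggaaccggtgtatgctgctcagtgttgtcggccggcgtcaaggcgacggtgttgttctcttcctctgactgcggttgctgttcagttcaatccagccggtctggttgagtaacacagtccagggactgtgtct
Med13: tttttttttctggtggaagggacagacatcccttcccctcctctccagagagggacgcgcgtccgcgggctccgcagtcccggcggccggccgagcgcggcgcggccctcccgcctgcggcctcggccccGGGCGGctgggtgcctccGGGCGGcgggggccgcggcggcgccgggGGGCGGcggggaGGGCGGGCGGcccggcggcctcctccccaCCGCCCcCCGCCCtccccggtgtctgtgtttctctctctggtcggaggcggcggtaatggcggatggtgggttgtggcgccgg
All 4 held the GC box, with 4 matches in Cdk8, 2 in Cdk19, 1 in Ccnc and 7 in Med13, where a pair of them overlap. The same motif stood in 33.1% of all 33469 promoters of the table and in 16 of the 22 members with a promoter there, so it was common among members in general. Those members included Med10, Med19, Med23 and Med31, which were higher with miR-222. Shares of all promoters here count promoters and are not limited to measured genes, whereas members are counted as genes. These shares are therefore not a like measure for the members. Ccnc also held a CCAAT box, found in 37.5% of all promoters, and an ETS motif, found in 8.75%. None of the 4 held the TATA box, found in 14.2% of all promoters, or the E-box, found in 6.42%. The G and C content was 78.7% in Cdk8, 61.7% in Cdk19, 56.7% in Ccnc and 78.0% in Med13, against a median of 51.7% over all promoters. A match is a description of letters and does not show binding.

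Med30 rose far more than any other member. Its product is a subunit found in animals but not in yeast, placed where the head meets the tail. Probe set 10896515 measured 9.96, 10.03, 9.99 and 10.04 log2 units in miR-222 arrays and 8.57, 8.61, 8.74 and 8.58 in control arrays. The 4 miR-222 arrays lay close together, and all stood far above the control arrays. The mean was 10.01 ± 0.04 in miR-222 cells and 8.62 ± 0.08 in control cells (SD, n = 4 each), a log2 fold change of 1.38 (SE 0.05), or 2.61-fold higher. By size of rise it ranked 9 among the 14506 genes, which describes a rise already known when the genes were chosen. Across 16 alternative analyses of the same arrays the log2 fold change was 1.35 to 1.42. Some of these alternatives, named at the end, could not move a fold change.

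None of the subunits placed near Med30 in the complex passed the test. Med27, Med28 and Med29, which are also placed between head and tail, had log2 fold changes of -0.02 (95% interval -0.16 to 0.12), -0.0013 (-0.11 to 0.10) and -0.06 (-0.16 to 0.04), and their groups overlapped.

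Of the genes beside Med30 on its chromosome, the nearest measured ones were Slc30a8 and Aard before it and Ext1 and Samd12 after it. Samd12, a gene of a sterile alpha motif protein, was higher with miR-222, at 9.53 ± 0.18 log2 units in miR-222 cells and 9.05 ± 0.05 in control cells (SD, n = 4 each), a log2 fold change of 0.48 (SE 0.09, limma adjusted p = 0.00691). Ext1, which encodes a heparan sulfate polymerase and lies between them, did not pass at -0.25 (SE 0.12), with miR-222 replicate 3 at 10.49 and the other miR-222 arrays at 10.91 to 11.05. Aard at 0.10 (SE 0.08) and the zinc transporter gene Slc30a8 at -0.02 (SE 0.09) did not pass either. Slc30a8 (6.71 in miR-222 and 6.72 in control cells) and Aard (7.41 and 7.31) lay below the array medians, where changes can be understated. Between Slc30a8 and Med30 lay 5 annotated genes that were not measured, and between Med30 and Ext1 lay 1. The closest measured gene on either side of Med30 did not pass, and the next measured one beyond Ext1 was higher.

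Genes of the middle, the part that lies along the polymerase, moved in opposite directions: 3 of the 6 measured were higher (11.7% of all genes were), 1 was lower (13.0% of all genes were) and 2 did not pass. Med4 (probe set 10781443), a core subunit of the middle, measured 8.61, 8.64, 8.74 and 8.81 in miR-222 arrays and 9.15, 9.21, 9.31 and 9.27 in control arrays. The groups were well apart. Its log2 fold change was -0.54 (SE 0.06, limma adjusted p = 0.000702), or 1.45-fold lower, which places it among the kinase genes in size.

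The 3 higher genes of the middle moved by less. Med10 (probe set 10796853), a conserved core subunit, measured 10.48, 10.40, 10.52 and 10.49 in miR-222 arrays and 10.25, 10.26, 10.25 and 10.16 in control arrays. Med10 thus had a log2 fold change of 0.24 (SE 0.04, limma adjusted p = 0.00719). Med31 (probe set 10744682), among the most conserved subunits from yeast to mammals, measured 8.76, 8.68, 8.87 and 8.84 in miR-222 arrays and 8.49, 8.52, 8.68 and 8.54 in control arrays. Control replicate 3 came within the rounding of miR-222 replicate 2, so the groups were barely apart. The fold change of Med31 on the log2 scale was 0.23 (SE 0.06, limma adjusted p = 0.0335). Med19 (probe set 10837331), a subunit linked in human cells to the repressor REST, measured 9.36, 9.27, 9.38 and 9.26 in miR-222 arrays and 9.07, 9.03, 9.22 and 9.15 in control arrays. Its log2 fold change was 0.20 (SE 0.06, limma adjusted p = 0.0417).

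The calls of Med31 and Med19 were lost when most single arrays were left out. That of Med19 was kept only when control replicate 3 was the array left out (adjusted p up to 0.110 without another array), and that of Med31 only without control replicate 3 or miR-222 replicate 2 (up to 0.0931). With each array centred on its own median, Med10 stood just past the threshold on the other side (adjusted p = 0.0515), and Med31 and Med19 did not pass (0.115 and 0.131).

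The other genes of the middle did not pass. Med1, the subunit through which nuclear receptors contact Mediator, was at 0.07 (95% interval -0.02 to 0.16). Med21, a conserved subunit that pairs with Med7, was at -0.21 (-0.44 to 0.01), and its spread came from miR-222 replicate 3, at 8.84, while the remaining miR-222 arrays lay at 9.19 to 9.31. The scaffold gene Med14 was at 0.02 (-0.14 to 0.18), with overlapping groups at 7.55 to 7.75 in miR-222 arrays and 7.47 to 7.74 in control arrays, close to the array medians.

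In the tail, where many activators bind, 1 of 4 measured genes was higher and 1 lower (11.7% and 13.0% of all genes). Med15 (probe set 10752414), the subunit that in human cells binds the sterol regulator SREBP, measured 9.82, 9.89, 9.80 and 9.83 in miR-222 arrays and 10.12, 10.06, 9.98 and 10.18 in control arrays. The groups did not overlap. Its log2 fold change was -0.25 (SE 0.05, limma adjusted p = 0.0128), or 1.19-fold lower. Med23 (probe set 10717201), through which the factor Elk1 acts in mouse cells, measured 9.88, 9.73, 9.81 and 9.81 in miR-222 arrays and 9.67, 9.64, 9.69 and 9.60 in control arrays. Its log2 fold change was 0.16 (SE 0.05, limma adjusted p = 0.0443), a call kept only when miR-222 replicate 2 was the array left out (up to 0.107 without another array) and lost when arrays were centred on their medians (adjusted p = 0.213).

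The other tail genes did not pass. Med16 was at 0.12 (SE 0.04, limma adjusted p = 0.0944), with all miR-222 arrays (10.60 to 10.73) above the control arrays (10.53 to 10.59), and it did pass without miR-222 replicate 3 (adjusted p = 0.0418). Med24, a tail subunit linked to nuclear receptors, was at -0.02 (95% interval -0.11 to 0.07).

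**Figure D3:**
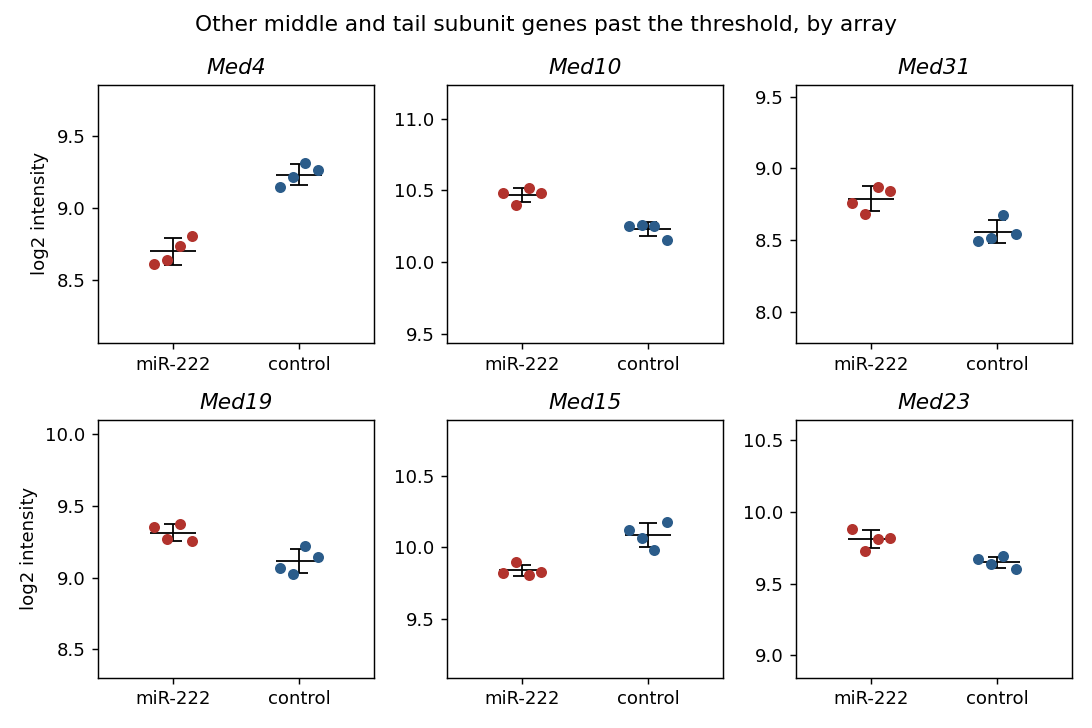
Log2 intensity (vertical axis, the same span in every panel) of the other 6 members past the threshold in the 4 miR-222 arrays (red) and the 4 control arrays (blue), with mean and SD in black. Med4 and Med15 lie lower with miR-222, and Med10, Med31, Med19 and Med23 lie higher by 0.16 to 0.24 log2 units.

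No gene of the head, the part that contacts the polymerase directly, passed limma at an adjusted p under 0.05 (0 of 6), although 3 had an unadjusted p under 0.05. Of all genes 24.7% passed, and with 6 genes nothing is read from this count. Med20, which with Med8 and Med18 forms a mobile part of the head, was nearest, at 8.06 to 8.29 log2 units in miR-222 arrays and 8.30 to 8.56 in control arrays. These ranges nearly touch. Its log2 fold change was -0.24 (SE 0.07, limma adjusted p = 0.0586), and it passed without control replicate 4 (adjusted p = 0.0380). Med22 was at -0.21 (SE 0.09) with overlapping groups. Med17, the central subunit of the head, was at 0.11 (SE 0.04), and Med11, its conserved partner, at -0.12 (SE 0.05), each with groups that did not overlap. Med6 and Med8 were at -0.0088 and -0.012 (95% intervals -0.14 to 0.13 and -0.13 to 0.11).

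The 6 lower members (Cdk8, Cdk19, Ccnc, Med13, Med4 and Med15) kept their call in all 16 alternative analyses, and the calls of Med10, Med19, Med31 and Med23 were lost in at least 1. The count of 5 higher members was 1 with arrays centred on their medians. It was 2 when any of control replicates 1, 2 and 4 or miR-222 replicate 4 was left out. Without miR-222 replicate 1 or 3 it was 3. Each of these counts includes Med30, whose rise was known beforehand, and with centred arrays Med30 was the only one. Of all genes, 24.7% were called in the main fit, 21.0% with centred arrays and 18.5% to 23.5% without single arrays. The count of 6 lower members was 6 or 7 whichever array was left out.

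Genes of the machinery that Mediator works with changed in both directions. The lists were 6, and of their 81 measured genes 17 were higher and 14 lower, with a median log2 fold change of -0.02 (11.7% of all genes were higher and 13.0% lower). The same shares of all genes stand beside the count of each list below, and nothing is read from those counts. The 17 higher genes were 8 with arrays centred on their medians, and the 14 lower genes were 8 without control replicate 1 and 9 when control replicate 2, control replicate 3 or miR-222 replicate 3 was left out. Of 10 measured subunits of RNA polymerase II, 4 were higher and 1 lower (median 0.07). Polr2i, Polr2d and Polr2g, all small subunits, were higher by 0.26 (SE 0.04), 0.22 (SE 0.05) and 0.19 (SE 0.05), and Polr2h by 0.13 (SE 0.03). Polr2b, a large subunit that helps form the catalytic centre, was lower at -0.19 (SE 0.06). The limma adjusted p of these 5 genes was 0.00251 to 0.0458.

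Of 22 measured genes of the general transcription factors, which assemble with polymerase at promoters, 5 were higher and 4 lower (median 0.01). Taf11 and Taf2, subunits of the TATA-binding factor TFIID, were lower at -0.46 (SE 0.05) and -0.34 (SE 0.05), whereas Taf9b, also of TFIID, was higher by 0.44 (SE 0.06). The subunits of TFIIE moved apart, with Gtf2e1 lower at -0.40 (SE 0.06) and Gtf2e2 higher by 0.22 (SE 0.04). The limma adjusted p of these 5 genes was 0.000385 to 0.00660.

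Among 12 measured genes of the other transcription kinases and their cyclins, 3 were higher and 3 lower (median -0.07). Cdk9, the kinase that releases paused polymerase, averaged 10.66 ± 0.04 log2 units in miR-222 cells and 10.24 ± 0.04 in control cells (SD, n = 4 each), a rise of 0.42 (SE 0.04, limma adjusted p = 0.000396). Its cyclin partners moved apart, Ccnt1 at 0.21 (SE 0.05) and Ccnt2 at -0.20 (SE 0.04), and of the kinase complex of TFIIH, Mnat1 was lower at -0.14 (SE 0.04) and Ccnh higher by 0.13 (SE 0.04). The third lower gene was Cdk13, an elongation kinase, at -0.17 (SE 0.05). Cdk8 and Cdk19, at -0.45 and -0.57, thus stood below every gene of this list, whose lowest value was -0.21.

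Of 23 measured pausing and elongation factors, 4 were higher and 3 lower (median -0.05). Ctr9 of the PAF complex rose by 0.28 (SE 0.04) and Supt16h of the histone chaperone FACT by 0.28 (SE 0.04), while Cdc73, also of the PAF complex, was lower at -0.17 (SE 0.04). Genes of the super elongation complex went both ways too, with Mllt3 and Aff4 lower at -0.35 (SE 0.05) and -0.29 (SE 0.05), and Aff1 and Ell higher by 0.27 (SE 0.06) and 0.17 (SE 0.04). Of 7 measured genes of cohesin and its loader, which hold enhancers near promoters together with Mediator, 2 were lower and 0 higher by limma, and no member above 0 had an unadjusted p under 0.05. The lower genes were Stag1 at -0.33 (SE 0.07) and Smc1a at -0.32 (SE 0.05). Of 7 measured genes of Integrator, which cleaves nascent RNA, Ints4 was higher by 0.23 (SE 0.04) and Ints11, its endonuclease, lower at -0.17 (SE 0.04).

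**Figure D4:**
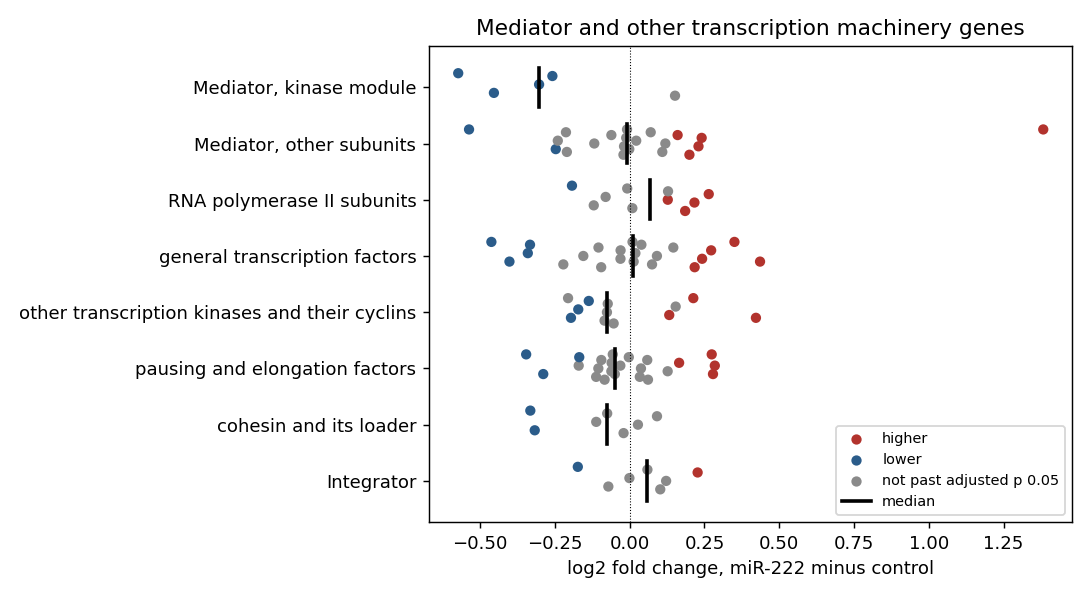
Log2 fold change (miR-222 minus control, horizontal axis) of each measured gene of Mediator and of 6 lists of transcription machinery, with 1 point per gene and a black bar at the list's median. Vertical spread within a list only separates points. The kinase module has a median of -0.30, and the other lists have medians between -0.08 and 0.07.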

How the data were processed

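RNA of 8 samples of primary newborn rat ventricular cardiomyocytes, 4 with the miR-222 precursor and 4 with the control precursor, was converted to biotin-labelled cRNA for an Affymetrix array, per the labels' protocols. The deposited table holds the authors' intensity values on a linear scale, 0.8 to 16339, for 29170 probe sets. They were already normalized between arrays, but the method is not stated in the labels or headers. Scanner files and detection calls were not used here, and without counts no depth can be given: the number of arrays limits the precision. The series text names another Affymetrix rat array than the one whose annotation pairs with the identifiers, and that pairing supplied the gene names.

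Values were taken as log2 without a pseudocount. All probe sets entered limma 3.58.1 (lmFit and eBayes, R 4.3.3), with two-sided p-values adjusted by Benjamini-Hochberg. Of the probe sets, 15310 paired with 1 gene, and the brightest stood for each of 14506 genes. All 26 member symbols were current in RefSeq. Neither pairing nor batch is labelled, and replicates are numbered in the order listed. The pair Cdk19 and Cdk8 was compared with an exact permutation test (scipy 1.17.1). In data simulated from the real spread, with 200 of 29170 probe sets changed (5 simulations), limma recovered 12.5% of changes of 0.25, 59.4% of 0.5 and 86.7% of 1 on the log2 scale, and 6.56% of calls were false. In the measured data 24.7% of all genes were called, a far larger share than was changed in the simulations. Adjusted p-values depend on that share, so these rates need not hold for the measured data. Figures were drawn with matplotlib 3.10.9.

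The members, the 6 lists of transcription machinery, the markers and the tests were chosen with earlier results of these data known. Named were all members, up to 4 genes of each list with the smallest p among those past the threshold, the study's known targets and the 2 nearest measured genes on each side of a member changed by at least 1 log2 unit. Polr2b, Gtf2e2, Ccnh, Cdk13, Cdc73, Aff1, Ell and the single markers were named after their values were seen. Alternatives were an intensity trend with robust variance, array weights, arrays centred on their medians, quantile normalization, a pseudocount of 16, a filter keeping the brightest 60% of probe sets, 1 probe set per gene, the mean of a gene's probe sets and leaving out each array.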

Additional observations from a re-analysis of the deposited data

Results flagged for a closer look

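In the control arrays, Med10 had 1 value far from the others: control replicate 4 had 10.16 log2 units, whereas the other 3 control arrays lay at 10.25 to 10.26. The gap was 0.901 of the group's range, past the 95% limit of Dixon's test for 4 samples. It was the only such value among the 52 groups of 4 arrays looked at (26 members in 2 treatments), of which chance alone would mark about 5%. Without that array Med10 was still higher with miR-222, at a log2 fold change of 0.22 (SE 0.05, limma adjusted p = 0.0208).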

How the results depend on the processing

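Over 16 alternatives, the 416 fold changes of the 26 members kept their direction and side of the threshold in 360. The call was lost in 24 (Med10, Med19, Med23 and Med31) and gained in 12 (Med12l, Med16, Med17 and Med20). Direction turned in 20, all in 5 members with changes near 0. The intensity trend, the brightness filter, 1 probe set per gene and the mean of a gene's probe sets left every member's fold change unchanged. Under these only the side of the threshold could move, so part of the 360 could not have turned direction. The turned values were, with array weights, 0.027 for Med6, 0.017 for Med8 and 0.0088 for Med28; with quantile normalization, 0.0034 for Med6, 0.0021 for Med27, 0.015 for Med28 and -0.0045 for Med14; and with centred arrays -0.0037 for Med14. Without single arrays the ranges were -0.049 to 0.029 for Med6, -0.035 to 0.024 for Med8, -0.053 to 0.026 for Med27, -0.021 to 0.027 for Med28 and -0.031 to 0.059 for Med14. The 5 higher members were 1 with arrays centred on their medians and 8 among the brightest 60% of probe sets. Fewer probe sets were tested there. Without single arrays, which left fewer samples, the higher members were 2 to 4. Of the genes tested, 42.6% were called under that filter and 18.5% to 23.5% without single arrays, against 24.7% in the main fit. Med30 was among the higher members in each of these counts. The 6 lower members were 6 or 7 in every alternative. Of the partner lists' 17 higher and 14 lower genes, 8 were higher with centred arrays, and without single arrays 13 to 16 were higher and 8 to 13 lower. The cause of the change with centring was not tested, and it moved the median of all probe sets to -0.02, against 0.01 without it. Of all genes, 1190 were then higher and 1863 lower, against 1692 and 1888. Cdk19 minus Cdk8 ranged from -0.16 to -0.08 without single arrays (exact permutation p = 0.114 to 0.4). With 1 array left out this test has too few arrangements to reach a p under 0.05. Nothing is therefore read from its not passing there. No paired analysis was possible because the labels give no replicate numbers that the groups share. Dim probe sets such as that of Med14, near the array medians, can understate changes.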
